A study of Mus musculus with 6 samples.

Results

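The genes described here encode the classical route by which a cell shows peptides from its own proteins on its surface: the light and heavy chains of MHC class I, the peptide transporter and its partner, and the catalytic subunits of the immunoproteasome. There are 10 genes: B2m, H2-D1, H2-K1, H2-M3, Tap1, Tap2, Tapbp, Psmb8, Psmb9 and Psmb10. Every probe set that the platform annotation gives to exactly 1 of these symbols was taken, which made 27 of the 45037 probe sets tested. Expression was measured on 6 Affymetrix mouse arrays, 3 reactive and 3 non-reactive, each hybridised with RNA of eGFP-positive cells that had been sorted out of somatosensory cortical grey matter.

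Reactive cells (3 arrays) carried the transgene TgN(hGFAP-EGFP) GFEA, with eGFP under the promoter of human GFAP. They were collected 5 days after the right hemisphere had been stabbed to a depth of 0.7 mm over a length of 1 to 1.2 mm. Non-reactive cells (3 arrays) carried Tg(Aldh1l1-eGFP)OFC789Gsat and came from the same region of uninjured mice. All mice were FVB/N, 2 to 3 months old and of undetermined sex, and each array holds cells pooled from about 15 animals. The protocol also describes BrdU labelling, and whether the animals of the arrays received it is not stated. Injury and reporter line changed together, so their parts in any difference between the groups cannot be told apart.

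A class I molecule is a polymorphic heavy chain paired with the invariant light chain beta-2-microglobulin, and it holds a short peptide for inspection by CD8 T cells and natural killer cells. The peptides are cut by the proteasome, pumped into the endoplasmic reticulum by the transporter made of Tap1 and Tap2, and loaded with the help of tapasin, the product of Tapbp. Interferon-gamma is known to raise these genes together and to exchange the catalytic subunits of the proteasome for Psmb8, Psmb9 and Psmb10. In the healthy brain class I is low in most cells, and it is known to rise in glia after injury and infection.

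The data show a rise of B2m and of 4 probe sets of the classical heavy chains, which may read more than 1 H2 gene. Differences in the machinery that feeds class I were smaller than these, and none passed. The calls of B2m and the heavy chains were themselves lost with the replicate number as a block or without any 1 non-reactive array. Both B2m probe sets rose, by 3.06 and 2.87 on the log2 scale. Of the 13 probe sets annotated to H2-D1 or H2-K1, 4 rose by 2.76 to 3.90, and none fell. No probe set of H2-M3, Tap1, Tap2, Tapbp, Psmb8, Psmb9 or Psmb10 passed. In all, 6 of 27 probe sets were called, all 6 higher in the reactive arrays, where 0.850% of all probe sets were called and 0.266% were called higher (limma, Benjamini-Hochberg over the 45037 probe sets, threshold 0.05). At an unadjusted p under 0.05 there were 12 of 27, beside 13.2% of all probe sets. The probe sets of a gene share their target, so these are not 6 independent results.

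The stretch of DNA in front of the start is shown for 5 of these genes: the 4 genes of class I chains, which share a spacing of letters there whether called (B2m, H2-D1, H2-K1) or not (H2-M3), and Tap1, which lacks it. The sequences are the 250 bases before each start from RefSeq, assembly GRCm38.p6, written in the direction of the gene. They are the letters of that assembly, and how far the FVB/N mice of the arrays share them is not known here. Capitals mark exact matches, on either strand, to GAAANNGAA, TTCNNNGAA, TGACG and CCAAT. GAAANNGAA is a form of the core of the interferon-stimulated response element, and TTCNNNGAA is the gamma-activated site. TGACG is the core of the X2 box or site alpha of class I promoters, and CCAAT is the Y box. On the printed strand a CCAAT of the other strand reads ATTGG. The stretches lie at chr2:122147437-122147686 (plus strand) for B2m, chr17:35262844-35263093 (plus) for H2-D1, chr17:34000334-34000583 (minus, the second of 2 listed starts 14 bases apart) for H2-K1, chr17:37269984-37270233 (plus) for H2-M3 and chr17:34187306-34187555 (plus) for Tap1.
B2m: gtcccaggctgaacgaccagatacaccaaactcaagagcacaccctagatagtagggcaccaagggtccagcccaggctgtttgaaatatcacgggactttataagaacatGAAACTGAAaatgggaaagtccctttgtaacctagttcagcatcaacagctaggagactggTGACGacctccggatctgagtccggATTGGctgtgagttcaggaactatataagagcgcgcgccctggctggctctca
H2-D1: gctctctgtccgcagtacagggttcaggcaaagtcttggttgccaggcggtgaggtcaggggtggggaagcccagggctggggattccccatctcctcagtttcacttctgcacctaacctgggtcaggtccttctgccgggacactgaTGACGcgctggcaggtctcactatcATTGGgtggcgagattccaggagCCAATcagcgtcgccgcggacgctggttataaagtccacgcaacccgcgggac
H2-K1: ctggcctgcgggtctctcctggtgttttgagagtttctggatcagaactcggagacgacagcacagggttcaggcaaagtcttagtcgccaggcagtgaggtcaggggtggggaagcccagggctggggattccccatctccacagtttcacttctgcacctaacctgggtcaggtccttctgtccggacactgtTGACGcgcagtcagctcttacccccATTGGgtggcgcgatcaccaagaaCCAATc
H2-M3: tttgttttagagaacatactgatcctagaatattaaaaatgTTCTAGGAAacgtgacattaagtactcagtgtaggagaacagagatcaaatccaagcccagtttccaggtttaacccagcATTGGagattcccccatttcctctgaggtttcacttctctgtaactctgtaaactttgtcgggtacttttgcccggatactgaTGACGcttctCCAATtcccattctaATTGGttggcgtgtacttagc
Tap1: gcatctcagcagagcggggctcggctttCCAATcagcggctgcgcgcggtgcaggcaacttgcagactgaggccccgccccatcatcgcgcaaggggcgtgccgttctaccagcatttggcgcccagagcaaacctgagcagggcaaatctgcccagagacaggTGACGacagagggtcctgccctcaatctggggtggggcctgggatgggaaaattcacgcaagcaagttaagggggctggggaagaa

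Promoters of 9 of the 10 genes were in the table. TGACG was found in 6 of the 9 (B2m, H2-D1, H2-K1, H2-M3, Tap1 and Psmb9), against 17.8% of all 32851 stretches of this length. In B2m, H2-D1, H2-K1 and H2-M3, the 4 genes of class I chains, an ATTGG begins exactly 25 bases after the TGACG begins. That spacing, noticed after the sequences were seen, was held by 0.0913% of all stretches, in 26 genes. Class I promoters are known for a module that holds an X2 box followed by a Y box, through which the transactivator Nlrc5 acts. CCAAT on its own was found in 7 of the 9, against 33.9% of all. GAAANNGAA was found in B2m alone, 139 bases before its start (7.13% of all), and TTCNNNGAA in H2-M3 and Psmb8 (7.02% of all). The search for GAAANNGAA covered this order only, and not the order with GAA first and GAAA last. The printed stretches of H2-D1, H2-K1 and H2-M3 each hold tttcacttc, which on the other strand reads in that second order. How common that order is among all stretches was not counted. The search therefore does not show that genes other than B2m lack such an element. Tap1 and Psmb9 face away from each other with starts 226 bases apart and share 225 bases of these stretches. The TGACG of both is the same one, and so is their CCAAT, so each is counted for both genes. A match is a description of letters and not of binding, which these arrays do not measure.

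**Figure D1:**
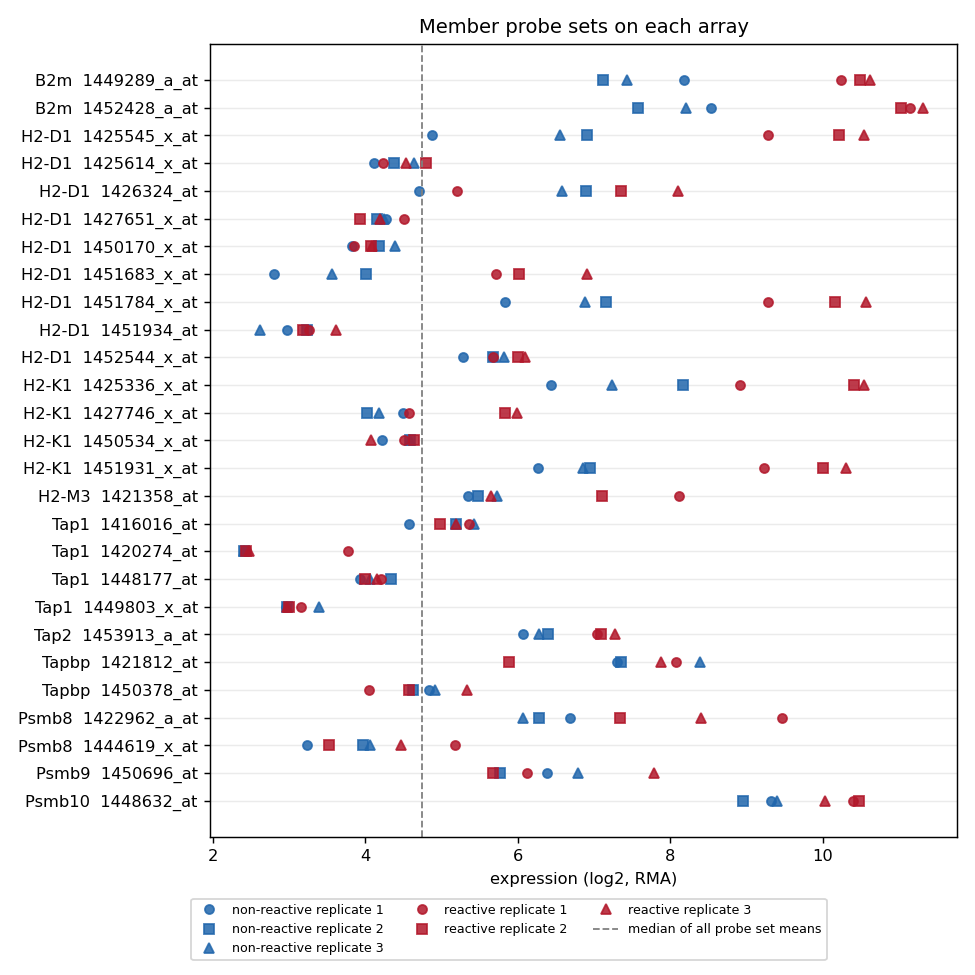
Expression (log2, RMA) of the 27 probe sets of the 10 genes, 1 row per probe set and 1 point per array, with reactive arrays in red and non-reactive arrays in blue and the marker shape giving the replicate number; the dashed line is the median of all probe set means, 4.74. Both rows of B2m show the reactive arrays apart from the non-reactive ones. Of the 13 rows of H2-D1 and H2-K1 the groups are apart in 6 and overlap in the others, the bright row of 1426324_at among them. Among all probe sets the reactive arrays are all above in 12.8% and all below in 8.08%.

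B2m encodes beta-2-microglobulin, the light chain that every class I molecule needs to reach the surface. Its brighter probe set (1452428_a_at) measured 11.14, 11.03 and 11.32 in reactive replicates 1, 2 and 3 and 8.53, 7.58 and 8.21 in non-reactive replicates 1, 2 and 3. The 3 reactive arrays lay close together and well above all non-reactive arrays. The means were 11.16 ± 0.15 and 8.10 ± 0.48 (log2, SD, n = 3), an 8.34-fold rise with a log2 fold change of 3.06 (SE 0.29, limma adjusted p = 0.0205). The other probe set (1449289_a_at) measured 10.24, 10.48 and 10.61 in the reactive and 8.19, 7.12 and 7.43 in the non-reactive arrays, a 7.29-fold rise (log2 fold change 2.87, SE 0.31, limma adjusted p = 0.0249). In both probe sets non-reactive replicate 1 was the highest and replicate 2 the lowest of its group. In these mixed sorted cells, a change in the RNA of each cell and a change in the share of a cell type cannot be told apart, here and in what follows.

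The size of the B2m difference held whichever array was left out, between 2.80 and 3.27 for the brighter probe set and between 2.64 and 3.17 for the other. Its call was less secure. The brighter probe set lost it when reactive replicate 1 was left out (limma adjusted p = 0.0555), and the same happened for each of the 3 non-reactive arrays (0.0612, 0.0639 and 0.0755). The other lost it whichever array was left out, with adjusted p between 0.0558 and 0.0973 in limma. With the replicate number as a block the adjusted p of both was 0.105 and 0.112 (limma), in a fit that called 1 probe set in all.

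H2-D1 and H2-K1 encode classical heavy chains, which vary greatly between mouse strains. The genes are closely similar to each other and to other H2 genes, and 11 of their 13 probe sets carry the suffix _x_at, which marks probes that may match other sequences. Which H2 gene such a probe set reads is therefore uncertain, and the counts of the 2 genes are not separate measurements. FVB/N mice carry the q haplotype of the H2 complex, and how well each probe set matches it is not known here. The rule leaves no H2-K1 probe set without this suffix, and 2 for H2-D1.

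Among the 9 probe sets of H2-D1, 3 rose and all 3 carry the suffix. Probe set 1451784_x_at measured 9.29, 10.16 and 10.56 in the reactive and 5.83, 7.16 and 6.88 in the non-reactive arrays, a 10.4-fold rise (log2 fold change 3.38, SE 0.46, limma adjusted p = 0.0394). Probe set 1425545_x_at measured 9.28, 10.21 and 10.54 against 4.87, 6.90 and 6.55, a 14.9-fold rise (3.90, SE 0.59, limma adjusted p = 0.0488). Probe set 1451683_x_at measured 5.72, 6.02 and 6.91 against 2.80, 4.01 and 3.56, a 6.75-fold rise (2.76, SE 0.43, limma adjusted p = 0.0497). The groups did not overlap in any of the 3. In each of them replicate 1 was the lowest array of the reactive group and also of the non-reactive group. In the last, the non-reactive mean of 3.46 was under 4.74, the middle of all probe sets by mean, and the size of a rise from so dim a level is uncertain.

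The other 6 probe sets of H2-D1 did not pass. The brightest of them, 1426324_at, is one of the 2 without the suffix and measured 5.20, 7.35 and 8.10 in the reactive and 4.70, 6.90 and 6.58 in the non-reactive arrays. Its groups overlapped, and in both groups replicate 1 lay below the others by more than 1 log2 unit. Its log2 difference was 0.82 with a 95% interval of -1.26 to 2.91 (limma adjusted p = 0.707). Of the rises of the called heavy chain probe sets this interval covers 2.76, the smallest, but not 3.16, 3.38 or 3.90. The 95% intervals of those rises, 2.34 to 3.98, 2.28 to 4.49 and 2.49 to 5.32, overlap with it, so a disagreement between the probe sets is not shown. The other probe set without the suffix, 1451934_at, was dim on every array, at 2.62 to 3.62, and differed by 0.41 (95% interval -0.17 to 1.00). The remaining 4 differed by -0.13 to 0.33. Of these, 3 had a mean below the median of all probe sets.

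H2-K1 gave 1 rise among 4 probe sets. Probe set 1451931_x_at measured 9.23, 10.01 and 10.31 in the reactive and 6.26, 6.94 and 6.86 in the non-reactive arrays, an 8.94-fold rise (log2 fold change 3.16, SE 0.34, limma adjusted p = 0.0249). Probe set 1425336_x_at, of like brightness, measured 8.91, 10.41 and 10.55 against 6.44, 8.17 and 7.24. Its groups did not overlap either, and its difference of 2.67 (95% interval 1.27 to 4.07) did not pass (limma adjusted p = 0.116). Probe set 1427746_x_at measured 4.57, 5.83 and 5.99 against 4.50, 4.03 and 4.18, a difference of 1.23 (95% interval 0.26 to 2.19). Its reactive replicate 1 lay close to the non-reactive arrays. The last, 1450534_x_at, lay between 4.08 and 4.63 on all arrays and differed by -0.06.

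Across the 13 probe sets of both heavy chain genes the log2 differences ran from -0.13 to 3.90, with a median of 0.82 beside 0.10 over all probe sets. The groups did not overlap in 6 of the 13, all with the reactive arrays higher. Among all probe sets the reactive arrays were all above in 12.8% and all below in 8.08%. Without the suffixes _s_at and _x_at, 14 of the 27 probe sets were left, of which 2 were called, both of B2m. The rise of the heavy chains therefore rests on probe sets that may read more than 1 H2 gene. Without any 1 of the 6 arrays none of the 3 H2-D1 calls was kept (limma adjusted p 0.0622 to 0.145), while the H2-K1 call was lost when reactive replicate 2 was left out (0.0569) or any of the 3 non-reactive arrays (0.0892 to 0.0953). The log2 fold changes of the 4 stayed between 2.41 and 4.30 throughout.

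H2-M3 encodes a non-classical heavy chain that presents formylated peptides of bacteria and mitochondria. Its only probe set measured 8.12, 7.10 and 5.64 in reactive replicates 1, 2 and 3 and 5.35, 5.47 and 5.72 in the non-reactive arrays. Reactive replicate 3 lay within the range of the non-reactive arrays, and reactive replicate 1 was the highest, the reverse of the classical heavy chains. The difference of 1.44 (SE 0.59, 95% interval 0.03 to 2.84) did not pass (limma adjusted p = 0.367), and it was 2.09 without reactive replicate 3 and 0.86 without reactive replicate 1.

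**Figure D2:**
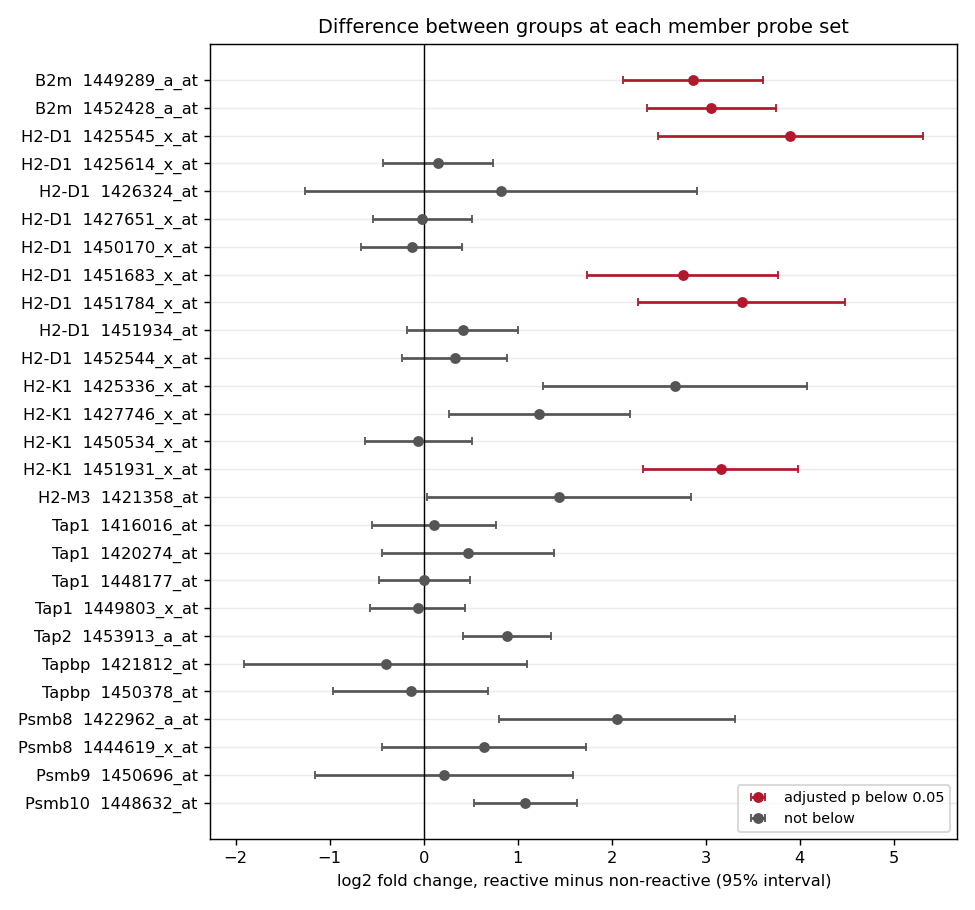
Log2 fold change, reactive minus non-reactive, of the 27 probe sets with 95% intervals from limma; red points have an adjusted p below 0.05. The 6 red points belong to B2m, H2-D1 and H2-K1 and lie between 2.76 and 3.90. The points of Tap1 and Tapbp, none of them red, lie between -0.40 and 0.47.

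The transporter and loading genes showed little. Tap1 and Tap2 encode the paired chains of the pump that moves peptides into the endoplasmic reticulum. Tap2 measured 7.04, 7.09 and 7.27 in the reactive and 6.07, 6.39 and 6.28 in the non-reactive arrays. Its groups did not overlap and the arrays of each group were tight, yet the difference of 0.89 (SE 0.20, 95% interval 0.42 to 1.36) did not pass (limma adjusted p = 0.119). It stayed between 0.80 and 0.96 whichever array was left out.

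Tap1 had 4 probe sets, and 3 of them were dim, with means below the median of all. The brightest, 1416016_at, measured 5.36, 4.98 and 5.19 in the reactive and 4.58, 5.19 and 5.43 in the non-reactive arrays, and the groups overlapped. Its difference was 0.11 with a 95% interval of -0.55 to 0.77 (limma adjusted p = 0.881). The 3 others differed by -0.07 to 0.47. The largest of these, at 1420274_at, came from reactive replicate 1, at 3.77 where the other 5 arrays lay between 2.41 and 2.47, although the groups did not overlap. No change of Tap1 was detectable at these levels.

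Tapbp encodes tapasin, which holds an empty class I molecule beside the transporter. Its brighter probe set, 1421812_at, measured 8.07, 5.89 and 7.87 in the reactive and 7.31, 7.35 and 8.40 in the non-reactive arrays. Reactive replicate 2 stood below the other 5 arrays. The difference was -0.40 (95% interval -1.91 to 1.10), and it turned to 0.29 without reactive replicate 2. The other probe set, 1450378_at, lay between 4.05 and 5.34 and differed by -0.14 (95% interval -0.96 to 0.68). Neither passed (limma adjusted p = 0.802 and 0.879).

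Psmb8, Psmb9 and Psmb10 encode the catalytic subunits of the immunoproteasome, which cut proteins in a way that favours peptides fitting class I. Psmb8 at its brighter probe set (1422962_a_at) measured 9.46, 7.34 and 8.40 in the reactive and 6.68, 6.28 and 6.07 in the non-reactive arrays. All reactive arrays were above all non-reactive arrays, but they spread over more than 2 log2 units. The difference of 2.06 (SE 0.52, 95% interval 0.80 to 3.31) did not pass (limma adjusted p = 0.165). Its dimmer probe set, 1444619_x_at, measured 5.18, 3.53 and 4.47 against 3.24, 3.96 and 4.06, a difference of 0.64 (95% interval -0.45 to 1.72).

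Psmb10 measured 10.40, 10.47 and 10.03 in the reactive and 9.32, 8.95 and 9.40 in the non-reactive arrays. Its groups did not overlap, and its spread was small, with SDs of 0.24 in both. The difference of 1.08 (SE 0.23, 95% interval 0.53 to 1.63) did not pass (limma adjusted p = 0.108). Psmb9 measured 6.12, 5.68 and 7.78 against 6.38, 5.77 and 6.79. Its groups overlapped, and the difference of 0.21 (95% interval -1.16 to 1.58, limma adjusted p = 0.89) turned to -0.41 without reactive replicate 3.

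Across the 27 probe sets the reactive arrays were all above the non-reactive arrays in 12, and all below in 0, where 12.8% of all probe sets had their reactive arrays all above and 8.08% all below. These 12 were found in 7 of the 10 genes. The median log2 fold change of the 27 was 0.64, beside 0.10 over all probe sets, and 21 of the 27 were above 0, as were 60.4% of all probe sets.

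In forming immunoproteasomes each of these subunits takes the place of 1 constitutive one, Psmb8 that of Psmb5, Psmb9 that of Psmb6 and Psmb10 that of Psmb7. Their ratio within an array was compared between groups, as the log2 value of the immunosubunit minus that of its counterpart, set to 0 at the non-reactive mean. Psmb8 against Psmb5 stood at 2.27, -0.02 and 0.35 in reactive replicates 1, 2 and 3 and at -0.18, 0.30 and -0.12 in the non-reactive arrays. Reactive replicate 1 alone stood apart. The difference was 0.86 (SD 1.23 and 0.26, n = 3 each, p = 0.2 in a two-sided exact permutation test). It was 1.57 with the brighter Psmb8 probe set and 0.16 without reactive replicate 1. Psmb9 against Psmb6 differed by -0.28 (exact permutation p = 0.8) and Psmb10 against Psmb7 by 0.18 (exact permutation p = 0.9), and both changed sign when 1 array was left out. After Benjamini-Hochberg adjustment over the 3 pairs the p-values were 0.6, 0.9 and 0.9, and 3 arrays against 3 cannot give less than 0.1 before it. The constitutive subunits themselves differed by 0.48 (Psmb5), 0.49 (Psmb6) and 0.90 (Psmb7), and none passed.

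**Figure D3:**
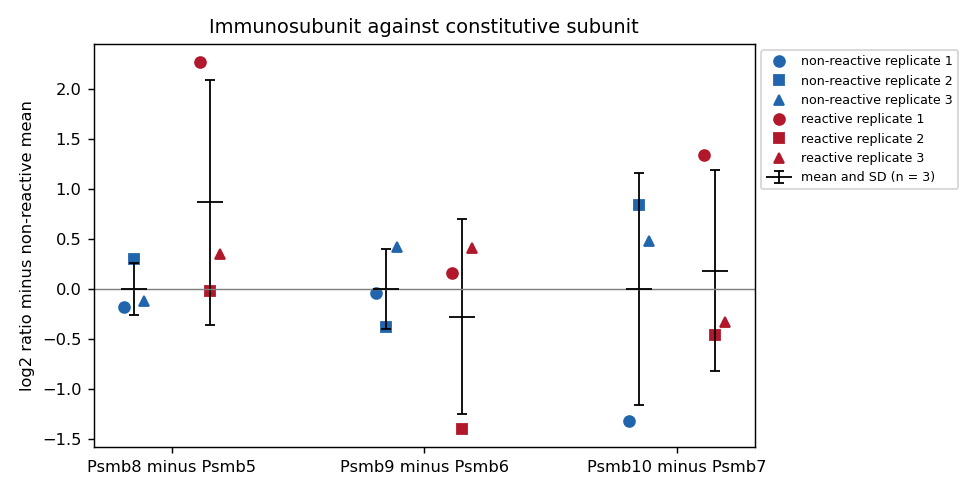
Log2 ratio of each immunoproteasome subunit to its constitutive counterpart within an array, set to 0 at the non-reactive mean; points are arrays, bars the mean and SD of 3 arrays. The groups overlap in all 3 pairs, and reactive replicate 1 is the highest reactive array for Psmb8 and Psmb10, at 2.27 and 1.34.

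The members also differed in which reactive array was highest. The 4 called heavy chain probe sets were highest in reactive replicate 3 and lowest in replicate 1. Psmb8 was highest in replicate 1 and lowest in replicate 2, H2-M3 was highest in replicate 1 and lowest in replicate 3, and Psmb9 was highest in replicate 3. Tap2 and the brighter B2m probe set hardly varied among the reactive arrays, with SDs of 0.12 and 0.15 (log2, n = 3).

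Other genes of the pathway, from lists made by function, were read at the probe set with the highest mean for each gene. By that reading 0.951% of all genes were called and 15.0% had an unadjusted p under 0.05. Of 8 measured class I heavy chains outside the members none passed in limma, also none at an unadjusted p under 0.05, and their median was 0.16 beside 0.12 over all 18193 genes. Of these 8, 7 were dimmer than the median of all probe sets, and 16 further listed heavy chains had no probe set with 1 symbol and were not analysed here. H2-T3 differed by 0.23 and H2-Bl by -0.20. Of 8 class I-like genes none passed and none had an unadjusted p under 0.05. Mr1, which presents vitamin metabolites, differed by 0.22 and Procr by 1.15.

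Of 13 genes of class I assembly and peptide trimming none passed (limma), with 4 at an unadjusted p under 0.05 and a median of -0.02. Of those 4, Sec61b, a subunit of the translocation channel, was higher in the reactive arrays by 1.32. The 3 others were lower, the peptidases Tpp2, Npepps and Ide, at -1.17, -0.86 and -0.67, with no overlap of the groups. Sec61a1 differed by 0.07. Of 14 constitutive core subunits none passed, with 3 at an unadjusted p under 0.05, although 13 had a change above 0 and their median was 0.49. Those 3 were Psma1, Psma2 and Psmb2, higher in the reactive arrays by 2.16 (limma adjusted p = 0.104), 1.40 and 1.13. The brightest core genes, Psmb3 and Psmb4, differed by 0.04 and 0.14. Of 9 proteasome regulators and assembly factors none passed, with 3 at an unadjusted p under 0.05. Psme1, a subunit of the PA28 activator that interferon is known to raise, measured 8.44, 8.90 and 9.24 in the reactive and 8.05, 7.89 and 7.98 in the non-reactive arrays. Its groups did not overlap, and its difference of 0.89 (95% interval 0.28 to 1.49) did not pass (limma adjusted p = 0.211). Pomp, which assembles the core, differed by 0.97 and Psmg4 by 1.42. Of 20 subunits of the 19S cap none passed, with 1 at an unadjusted p under 0.05. Psmc2 differed by -0.44 and Psmd14 by 0.06.

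The regulators of class I were read the same way. Of 29 measured none passed (limma), with 4 at an unadjusted p under 0.05. Nlrc5 measured 4.20, 4.06 and 3.81 in the reactive and 3.00, 3.50 and 3.16 in the non-reactive arrays. Its groups did not overlap and all 6 values lay below the median of all probe sets. Its difference of 0.80 (95% interval 0.26 to 1.34) did not pass (limma adjusted p = 0.207). Irf1, a transcription factor of the interferon response, measured 7.68, 7.25 and 8.80 against 6.87, 7.96 and 6.98 and differed by 0.64 (95% interval -0.50 to 1.78). Socs3, an inhibitor of cytokine signalling, differed by 2.07 (limma adjusted p = 0.0654), and Nfyc, a subunit of the factor that binds CCAAT, by -0.42. Psme2 had no probe set with 1 symbol and was not analysed here.

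**Figure D4:**
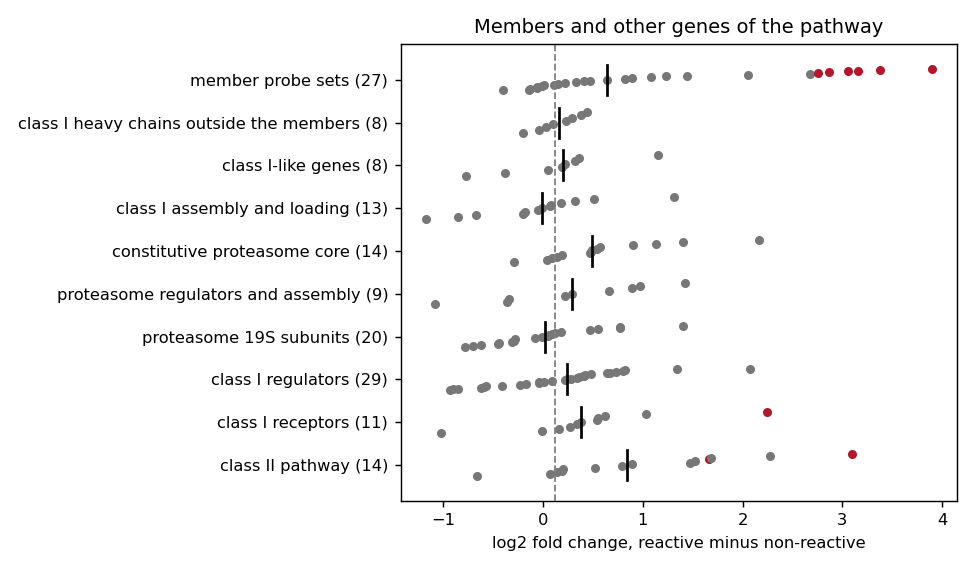
Log2 fold change, reactive minus non-reactive, of the 27 member probe sets and of the measured genes of 9 other lists of the pathway; red points were called, black bars are medians and the dashed line is the median of all genes, 0.12. The median of the members is 0.64, and those of the other lists lie between -0.02 and 0.85.

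The 5 genes outside the members whose profile lay nearest to that of B2m were picked by a stated measure. It was the Euclidean distance of log2 deviations over the 6 arrays, at the probe set with the highest mean. They were Prss22 (0.65), Sla (0.84), Fcer1g (0.96), C1qa (1.01) and Plac8 (1.03). Of these, Sla is an adaptor of blood cells, Fcer1g an Fc receptor chain and C1qa a complement gene of microglia and macrophages. Plac8 is in the list of monocyte and neutrophil markers used below. Prss22, the nearest, and Sla are in none of the gene lists used here. Read in the same way, the nearest member was H2-D1, at 1.88, followed by Psmb8 at 1.99. The farthest was Tapbp, at 4.64. H2-K1, at 2.33, was read at 1425336_x_at, which was not called. The order of the members may differ at their other probe sets. All 6 arrays share the split into groups, so a small distance shows mainly a like difference between groups.

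Class I genes are active in many cell types, and markers of other cells were measured on the same arrays. The sum of 19 microglia and macrophage markers (log2 of the summed level) lay between 14.4 and 15.1 on reactive and between 13.0 and 13.2 on non-reactive arrays, with 6 of 19 called higher. Cd68, of lysosomes, rose by 4.12, C1qc by 3.81 and C1qa by 3.76, both of complement, and Fcer1g by 2.73, while Csf1r differed by 0.42 and Laptm5 by 1.09 without a call. That of 9 markers of infiltrating monocytes and neutrophils stood at 11.4 to 12.5 against 7.80 to 8.48, with 4 of 9 called higher. Lyz2, the lysozyme of myeloid cells, rose by 5.67, Cd52 by 3.52, Plac8 by 3.31 and Ms4a7 by 3.12. Among defining genes, Cx3cr1 of microglia differed by 0.04, Tmem119 by 1.19, Ccr2 of monocytes by -0.03, Vcan by 0.03 and S100a8 of neutrophils by 1.40, and none of these passed. The sum of 12 astrocyte markers was lower, at 14.5 to 14.6 against 15.3 to 15.6, with 4 called lower and Gfap called higher. The filament gene Gfap rose by 3.12, while the gap junction genes Gjb6 and Gja1, the transcription factor Sox9 and the glutamate transporter Slc1a3 changed by -2.63, -1.38, -2.31 and -1.62. Aldoc (-1.11) and Glul (-0.32) were not called. The part of these cells in the class I difference was not tested.

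The T and NK cell markers, the cells that read class I, stood at 8.11 to 8.34 against 7.83 to 8.17, with none of 10 called (limma), 1 at an unadjusted p under 0.05, Cd4 at a difference of 0.13 and 6 dimmer than the median of all probe sets. The endothelial and mural markers stood at 9.43 to 11.4 against 9.47 to 10.3, with reactive replicate 3 the highest. Itm2a of endothelium differed by 2.83 and Pdgfrb of pericytes by -2.24. The summed level of 9 oligodendrocyte markers stood at 14.49 to 14.54 against 14.27 to 14.60. Its brightest genes weigh most in this sum, the myelin gene Mbp at a difference of -0.49 and Cnp at 1.04. Gene by gene 8 of the 9 were above 0, with a median of 1.04, among them Cldn11 (3.02), Opalin (2.30, limma adjusted p = 0.0615), Mog (1.79) and Cnp (1.04), and none passed. The part of these cells in the class I difference was not tested either. The markers of neurons stood at 12.05 to 13.32 against 12.81 to 13.37, with Rbfox3 at a difference of -0.30 and Nefl at -1.06. The endothelial, oligodendrocyte and neuron lists had no called gene (limma), with 4, 6 and 1 genes at an unadjusted p under 0.05. RMA gives no value of 0, so no marker can be said to be at 0. The 3′ minus 5′ differences of the control probe sets, a sign of RNA quality and labelling, were lower on the reactive arrays, at 3.85 to 4.64 against 4.77 to 5.74 for Gapdh, 2.53 to 4.27 against 4.48 to 5.37 for Actb and 1.15 to 1.66 against 3.42 to 3.50 for Pcx. Their part in the result was not tested.

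**Figure D5:**
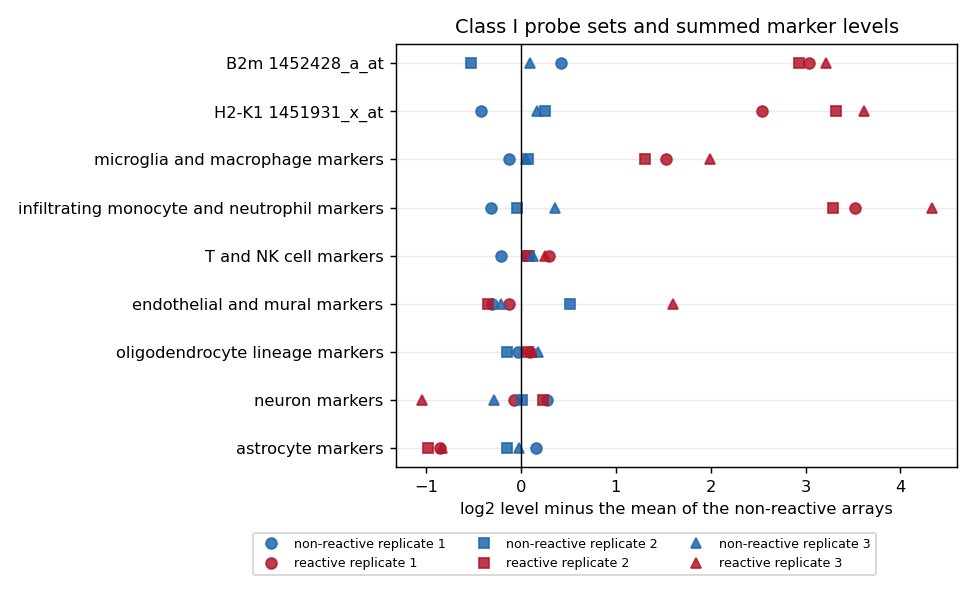
A B2m and an H2-K1 probe set (1452428_a_at and 1451931_x_at) beside the summed level of 7 marker lists, each as the log2 level minus the mean of the non-reactive arrays, 1 point per array. Both probe sets were picked for the lowest limma p of their gene, so their separation follows from the choice. Of the 4 H2-K1 probe sets only this 1 was called. The microglia and macrophage markers and the monocyte and neutrophil markers of the reactive arrays lie above the non-reactive arrays as B2m and H2-K1 do. The astrocyte markers lie below, and the sums of the other lists overlap. In the sum of the oligodendrocyte markers Mbp and Cnp weigh most.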

How the data were processed

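Each array was hybridised with biotin-labelled RNA amplified in 2 rounds from pooled sorted cells, per the labels' protocols. The authors deposited log2 values of expression, made with RMA per the submitters' processing notes. Which RMA version was used, and on which set of arrays, is not given in the sources used here. The array medians lay between 4.65 and 4.73, and pairs of arrays correlated at 0.901 to 0.921 (both reactive), 0.950 to 0.963 (both non-reactive) and 0.889 to 0.930 (one of each). The number of arrays limits the precision, and since nothing but pooled animals tells replicates apart, p-values measure the spread between these pools. The authors' values were used unchanged.

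Of 45101 probe sets 64 controls were left out, and no filter on low values was applied. The annotation gave 1 symbol to 34945, several to 932 and none to 9160; the gene identifiers of all 27 member probe sets matched RefSeq (GRCm38.p6) and 0 symbols changed. Groups were compared in R 4.3.3 by limma 3.58.1 (lmFit, then eBayes) on all 6 arrays without covariates (two-sided, 95% intervals from moderated standard errors), tested on simulated data first. The 10 members and the 16 other gene lists were chosen with earlier results of these data known. Genes named from the other lists were those called (at most 4 a list) and the 2 brightest others, and Psmb5, Psmb6, Psmb7, Nlrc5, Irf1, Psme1 and Psme2 in any case, and the 5 genes nearest to B2m; any other named gene was chosen after its values were seen, and 1 further gene of this rule is not reported here. Alternatives were other scalings, variance models, array weights, a filter on dim probe sets, the removal of cross-hybridising ones, the replicate block and each array left out. The replicate numbers name separate pools of animals in different mouse lines, so the numbers were not taken to pair the arrays. Same-numbered arrays deviated from their group means with correlations of -0.07, -0.11 and 0.04.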

Additional observations from a re-analysis of the deposited data

Results flagged for a closer look

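The annotation gives 3 further probe sets to several genes of which 1 or 2 are members, and these entered no comparison above. On all 3 the reactive arrays all lay above the non-reactive arrays, as they did on 12.8% of all probe sets. That outcome is why they are given here, so it is a description and no further support. Probe set 1424948_x_at, annotated to H2-K1 and H2-D1, measured 4.94, 5.87 and 6.01 against 3.92, 3.74 and 3.76, and the groups differed by 1.80 on the log2 scale (limma adjusted p = 0.0675). Probe set 1451593_at, of H2-Q5 and H2-K1, differed by 1.05 (limma adjusted p = 0.306) and 1422348_at, of Gm38417, H2-Q2 and H2-D1, by 0.54 (limma adjusted p = 0.275). None passed, and which gene each reads was not settled.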

How the results depend on the processing

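Over all probe sets 383 were called. With the replicate block the total was 1, and with 1 array left out it was 1 to 173. Of the member probe sets 6 were called, against 0 with the replicate block (limma; 12 had an unadjusted p under 0.05), 2 without _s_at and _x_at probe sets, and 0 to 2 with 1 array left out (10 or 11 at an unadjusted p under 0.05). Under the other alternatives 4 to 6 member probe sets were called. No called probe set changed sign. Sign changes fell on small differences. H2-D1 1427651_x_at stood at 0.00033 with median centring and -0.17 to 0.12 with 1 array left out, and H2-K1 1450534_x_at at -0.18 to 0.11. Tap1 1448177_at stood at -0.0325 with quantile normalisation again, -0.0872 with cyclic loess, -0.0264 with array weights and -0.0807 to 0.118 with 1 array left out. With 1 array left out the ranges were -0.13 to 0.29 for Tap1 1416016_at, -0.138 to 0.0732 for Tap1 1449803_x_at, -0.80 to 0.29 for Tapbp 1421812_at, -0.48 to 0.16 for Tapbp 1450378_at and -0.41 to 0.64 for Psmb9. The log ratio of Psmb9 to Psmb6 ran from -0.62 to 0.28 and that of Psmb10 to Psmb7 from -0.48 to 0.60. The cause was not tested. Over all settings and member probe sets, 317 values kept their direction and side of the threshold, 46 lost the call and 19 changed sign. Signal near background limits the dim probe sets, and no detection calls were used.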

Other observations

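The class II pathway, which presents peptides from outside the cell and is known for professional antigen-presenting cells, was measured on the same arrays. Of 14 measured genes 2 were called, both higher in the reactive arrays, while 71 of all 18193 genes were called higher and 102 lower, with a median log2 fold change of 0.85 beside 0.12 over all genes. H2-Aa, a class II chain, measured 8.53, 8.18 and 8.42 in the reactive and 4.85, 5.29 and 5.70 in the non-reactive arrays and rose by 3.10 (SE 0.27, limma adjusted p = 0.0199). Cd74, the invariant chain, measured 7.78, 7.41 and 7.95 against 5.93, 6.06 and 6.16 and rose by 1.66 (SE 0.22, limma adjusted p = 0.0373). Ctss, a protease that trims the invariant chain, differed by 1.52 (limma adjusted p = 0.065), and Cd86, a costimulatory ligand, by 1.69 (limma adjusted p = 0.157).

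Of 11 measured genes of class I receptors and their partners 1 was called, Trem2, a receptor of microglia and macrophages that does not itself bind class I, which rose by 2.24 (SE 0.28, limma adjusted p = 0.0341). Pirb, an inhibitory receptor of class I that is named because of its values, measured 5.17, 4.70 and 5.65 in the reactive and 3.90, 4.37 and 4.15 in the non-reactive arrays, a difference of 1.03 (95% interval 0.33 to 1.73) that did not pass (limma adjusted p = 0.213). The T cell gene Cd3e differed by 0.15 and Cd160 by 0.34.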
